A study of Mus musculus with 6 samples.

Results

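The aquaporin genes Aqp1, Aqp4, Aqp7 and Aqp11 were followed across the hearts of 3 groups of mice. Their members are the probe sets whose only annotated symbol is one of these genes, which gave 9 probe sets for 4 of the 18193 genes named on the array, 1 for Aqp1, 3 for Aqp4, 2 for Aqp7 and 3 for Aqp11. Of the 9, 8 passed the filter on low signals and were tested, and 1 probe set of Aqp11 did not. The genes were chosen by measured values, namely the lower Aqp1 signal of treated against untreated apoE-deficient hearts, with the other aquaporins added beside it. Values of that comparison are therefore given for these 4 genes as a description, with no p. The other comparisons share arrays with it and are not independent of that choice.

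The groups, each of 2 arrays, were treated apoE-deficient mice, which received rosiglitazone (30 mg/kg/day) over 2 months starting when they were 6 months old and whose hearts the labels call failing, apoE-deficient mice left untreated, and B6 mice with neither deficiency nor drug. The strain background of the apoE-deficient mice is not given in the sources used here. All mice were 8 months old when the hearts were taken, and ate a chow with 7% fat and 0.15% cholesterol. ApoE is an apolipoprotein that clears lipoprotein particles from blood, and rosiglitazone is an antidiabetic agonist of the nuclear receptor PPAR gamma. Drug and failing state came together in 1 group and cannot be told apart. The labels do not say whether an array held 1 heart or a pool, nor whether both arrays of a group stand for different animals. The p-values therefore cover the spread among these arrays alone, and that spread may be technical.

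Aquaporins are membrane channels that let water cross lipid bilayers along an osmotic gradient. Aqp1 is the water channel of capillary endothelium and of red blood cells, and in the heart most of it lies in the endothelium. Aqp4 is the water channel of astrocyte end feet and of the muscle cell membrane, where alpha-syntrophin of the dystrophin complex anchors it. Aqp7 also conducts glycerol and lets it leave fat cells during lipolysis, and in mouse adipocytes its gene is a target of PPAR gamma. Aqp11 is an unusual member of intracellular membranes, and mice that lack it develop polycystic kidneys.

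The promoter windows of Aqp1 and Aqp7 are shown because these genes lay on opposite sides in treated hearts, Aqp1 below both other groups and Aqp7 above them. Each window runs from 250 bases before to 50 bases after an annotated start, 5′ to 3′ on the gene's strand, from RefSeq on GRCm38.p6. Capitals mark the GC box GGGCGG in Aqp1 and, in Aqp7, the nuclear receptor core motif AGGTCA read on the opposite strand. The Aqp1 window is chr6:55336049-55336348 on the plus strand, and Aqp7 has 2 annotated starts on the minus strand, with overlapping windows chr4:41048087-41048386 and chr4:41047913-41048212.
Aqp1: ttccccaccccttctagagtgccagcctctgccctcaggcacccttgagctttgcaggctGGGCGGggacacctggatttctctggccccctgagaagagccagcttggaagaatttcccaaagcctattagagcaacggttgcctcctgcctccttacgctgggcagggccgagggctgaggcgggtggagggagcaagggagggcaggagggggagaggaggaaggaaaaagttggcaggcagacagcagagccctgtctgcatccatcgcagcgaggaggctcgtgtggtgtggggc
Aqp7, upstream start: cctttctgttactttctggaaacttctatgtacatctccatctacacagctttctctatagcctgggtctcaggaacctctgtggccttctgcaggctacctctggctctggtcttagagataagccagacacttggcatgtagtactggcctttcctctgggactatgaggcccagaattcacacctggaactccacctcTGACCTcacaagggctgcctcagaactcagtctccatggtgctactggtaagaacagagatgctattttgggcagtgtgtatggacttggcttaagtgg
Aqp7, downstream start: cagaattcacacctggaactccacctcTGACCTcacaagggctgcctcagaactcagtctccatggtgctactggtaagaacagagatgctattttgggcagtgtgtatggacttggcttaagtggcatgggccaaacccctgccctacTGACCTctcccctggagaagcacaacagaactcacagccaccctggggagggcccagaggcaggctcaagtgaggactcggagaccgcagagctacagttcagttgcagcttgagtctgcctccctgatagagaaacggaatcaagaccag
On both strands of these windows, AGGTCA was found at 0 places in Aqp1, at 1 place in the upstream and at 2 in the downstream Aqp7 window, 1 of them shared by the overlap, and 16.3% of 32851 RefSeq promoter windows of this length hold it. GGGCGG was found at 1 place in Aqp1 and at 0 in both Aqp7 windows, and 35.7% of all windows hold it. A direct repeat of AGGTCA with 1 base between the copies, a strict form of the PPAR response element that contains the core motif, was in none of these windows and is in 0.0396% of all of them. These matches describe letters in short windows and are not binding sites. The Aqp11 window held AGGTCA at 1 place.

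Arrays differed in brightness with group before any scaling. The 2%-trimmed mean signals were 263 to 341 on treated, 126 to 130 on untreated apoE-deficient and 149 to 175 on B6 arrays, so signals were quantile normalized and the number of arrays limits precision. Levels below are log2 of normalized signal plus a pseudocount of 11.1, which understates changes of low signals, and a level is never compared between probe sets. A probe set was called when limma's Benjamini-Hochberg adjusted p over all 27022 tested probe sets was under 0.05. The Apoe signal fitted the labels, at mean log2 levels of 6.23 on treated, 5.77 on untreated apoE-deficient and 11.88 on B6 arrays. All 8 cardiomyocyte markers were tested, with summed normalized signals of 118811 to 124995 on treated, 127845 to 129309 on untreated and 132610 to 132886 on B6 arrays. In treated against untreated hearts 2 rose (Tnnt2 and Pln) and 4 fell (Myh6, Actc1, Tnni3 and Myl2, the last most, by -0.32). Beside them 11.4% of all tested genes rose and 12.3% fell. Against B6 hearts 1 rose (Pln) and 3 fell (Actc1, Tnni3 and Myl2, with Actc1 lowest at -0.40), beside 8.78% and 9.87% of all tested genes. Markers of other tissues were present on the treated arrays, where 6 lung and airway genes summed to 14637 to 15455, against 107 to 109 on untreated and 97.3 to 121 on B6 arrays. Of these, 4 airway genes rose against both other groups, while the surfactant genes Sftpc and Sftpb did not pass. On the untreated and B6 arrays these 4 airway genes averaged below the filter on low signals. They were tested only through their high treated arrays, so a rise was built into their being tested. Their count therefore cannot be set against the shares of all tested genes. Of all tested genes 11.4% rose in treated against untreated apoE-deficient hearts and 8.78% against B6 hearts. The 6 brown adipocyte markers summed to 12203 to 12284 on treated, 2381 to 2392 on untreated and 2169 to 2381 on B6 arrays. Most of the sum on untreated and B6 arrays came from Cidea and Ppargc1a. The part of these other tissues in the aquaporin values was not tested.

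**Figure D1:**
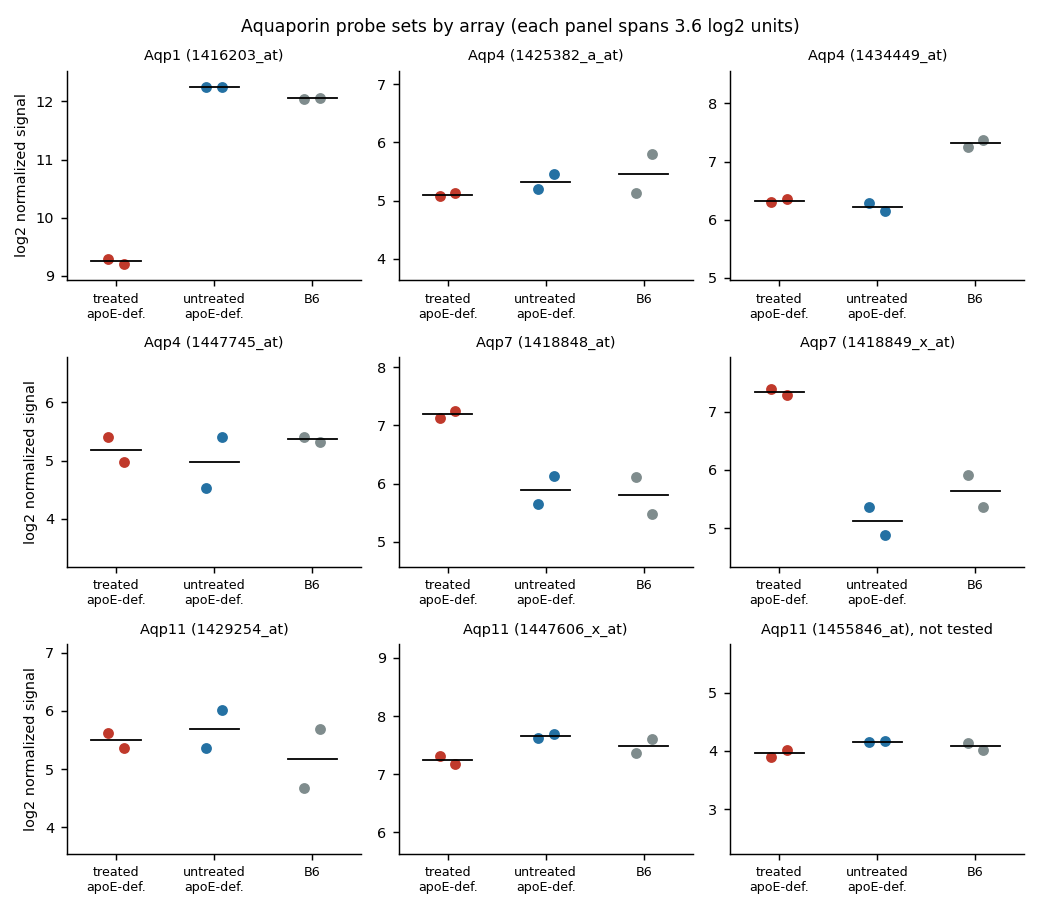
Log2 normalized signal (y axis) of the 9 aquaporin probe sets on each array, by group (x axis); points are arrays and lines are group means of 2 arrays. The treated points of Aqp1 lie near 9.25 and those of the other groups above 12, while both Aqp7 probe sets are highest on the treated arrays.

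Aqp1 was 8.01-fold lower in treated than in untreated apoE-deficient hearts and 6.99-fold lower than in B6 hearts, while the untreated groups lay close together. In these whole-heart samples fewer cells of a type and less RNA per cell cannot be told apart. The deposited signals of its probe set, 1416203_at, were 1080.3 and 779 for treated, 3506 and 3630.5 for untreated apoE-deficient and 3839 and 3339 for B6 hearts. Before scaling Aqp1 was lowest on the treated arrays too, and these were the brightest arrays. The deposited signals, like the normalized levels and percentiles that follow, restate the values that chose Aqp1 and add no support. Normalized signals were 616 and 579.7 on treated, 4874 and 4859 on untreated and 4222 and 4261 on B6 arrays. On the log2 scale the Aqp1 levels were 9.29 and 9.21 in treated, 12.25 and 12.25 in untreated apoE-deficient and 12.05 and 12.06 in B6 hearts. The treated arrays lie far below all 4 others, and no pair of groups overlaps. The place of Aqp1 among all probe sets of the same array needs no scaling between arrays, and it was the 89.4th and 88.9th percentile on treated arrays, against the 98.7th on both untreated apoE-deficient and the 98.5th on both B6 arrays.

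The Aqp1 log2 difference of treated from untreated apoE-deficient hearts was -3.0 ± 0.05 (SE, n = 2 arrays per group). It was the third lowest among 27022 tested probe sets, after 2 probe sets of the heat shock protein gene Hspa1b at -3.54 and -3.33. That low rank restates the fall that chose Aqp1 and adds no support. Against B6 hearts the treated difference of Aqp1 was -2.80 ± 0.05, and Apoe alone among all tested probe sets lay lower, at -5.66. This value rests on the treated arrays that chose Aqp1 and is given without a test. Untreated apoE-deficient hearts were above B6 hearts by 0.20 ± 0.05 (limma adjusted p = 0.0421), a call just inside the threshold. That call was lost without untreated apoE-deficient replicate 1 (0.19, adjusted p = 0.151) or 2 (0.19, adjusted p = 0.145), without B6 replicate 1 (0.19, adjusted p = 0.176) or 2 (0.20, adjusted p = 0.158), with no filter on dim probe sets (adjusted p = 0.0695) and with no intensity trend in the variance model (adjusted p = 0.3). With signals as deposited it was -0.0051. The treated arrays were thus lowest, while the order of the untreated groups rests on a call that several settings end.

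Each of the 3 comparisons can be read against the share of all probe sets called. Of the 8 tested aquaporin probe sets, 2 were called higher and 1 lower in treated against untreated apoE-deficient hearts, where 19.8% of all tested probe sets were called, 10% higher and 9.81% lower. Nothing is read from that count, since the comparison chose the genes. In untreated apoE-deficient against B6 hearts 1 was called higher and 1 lower, with 7.06% of all probe sets called, 3.17% higher and 3.9% lower. In treated apoE-deficient against B6 hearts 2 were called higher and 2 lower, with 15% of all called, 7.46% higher and 7.58% lower. Nothing is read from this count either, since 1 of the 2 lower is Aqp1, whose treated arrays chose it. Groups did not overlap for 6, 4 and 6 of the 8 in these comparisons, where 60%, 50.2% and 57.5% of all tested probe sets did not overlap. The median log2 difference of the 8 was -0.049, -0.021 and -0.21, against -0.016, -0.0064 and -0.023 for all tested probe sets. The 8 probe sets stand for only 4 genes, and nothing is read from these values about aquaporins as a family.

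**Figure D2:**
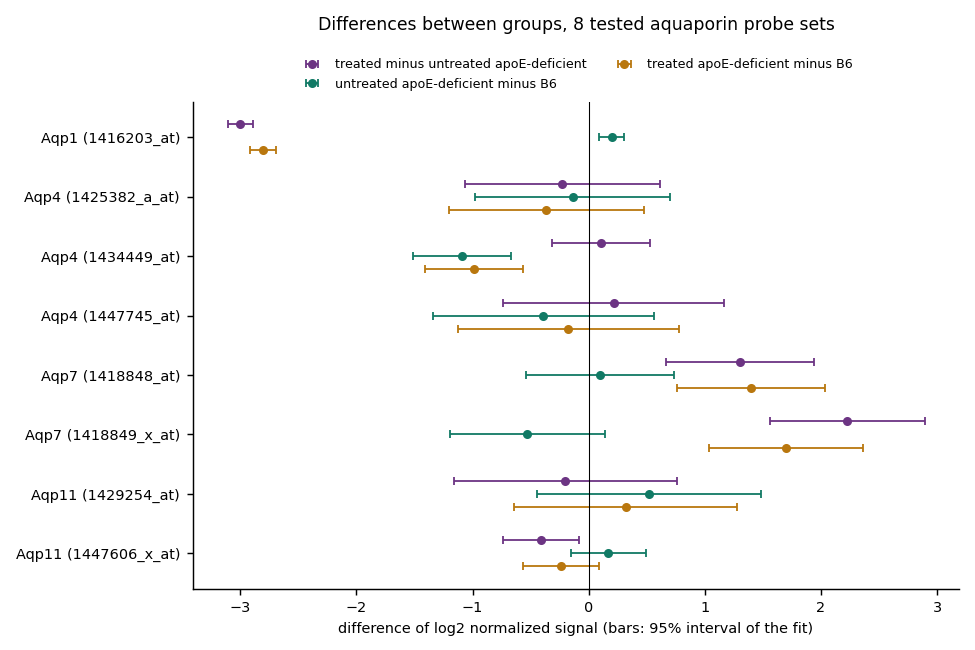
Differences of log2 normalized signal (x axis) for the 8 tested aquaporin probe sets (y axis) in 3 comparisons; bars are 95% intervals of the limma fit with 2 arrays per group. Aqp1 lies at -3.0 and -2.80 in both comparisons of treated hearts, Aqp7 lies between 1.30 and 2.23 in them, and 1 Aqp4 probe set is lower in both apoE-deficient groups than in B6.

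Aqp7, the glycerol channel, was higher in treated hearts by both of its probe sets. The deposited signals of probe set 1418848_at were 232 and 194 on treated, 25.8 and 37.9 on untreated apoE-deficient and 49.7 and 25.6 on B6 arrays. Those of 1418849_x_at were 279.9 and 199 on treated, 20.2 and 13.2 on untreated and 42.5 and 23.2 on B6 arrays. Both probe sets derive from the same transcript record, so they are not independent evidence. Levels of 1418848_at were 7.13 and 7.25 in treated, 5.66 and 6.13 in untreated apoE-deficient and 6.11 and 5.48 in B6 hearts. Levels of 1418849_x_at were 7.40 and 7.29 in treated, 5.36 and 4.87 in untreated and 5.92 and 5.37 in B6 hearts. In both, the treated arrays lie above all 4 others, and the 4 others spread more widely than the treated pair.

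Relative to B6 hearts, Aqp7 rose in treated hearts by 1.40 ± 0.28 by 1418848_at (limma adjusted p = 0.0103), a 2.63-fold higher signal. By 1418849_x_at it rose by 1.70 ± 0.29 (limma adjusted p = 0.00479), or 3.25-fold. Relative to untreated apoE-deficient hearts the differences of these probe sets were 1.30 ± 0.28 and 2.23 ± 0.29, given without a test. Between untreated apoE-deficient and B6 hearts Aqp7 did not pass, at 0.096 (95% interval -0.54 to 0.74, limma adjusted p = 0.878) and -0.53 (-1.19 to 0.14, limma adjusted p = 0.329). The call of 1418848_at against B6 was lost without treated replicate 1 (1.43, adjusted p = 0.0625), treated replicate 2 (1.34, adjusted p = 0.0787) or B6 replicate 2 (1.08, adjusted p = 0.0673), and that of 1418849_x_at without treated replicate 1 (1.61, adjusted p = 0.059). With no intensity trend neither passed (adjusted p = 0.0832 and 0.0542).

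Fat cell markers moved with Aqp7. Of 8 listed white adipocyte markers 5 were tested, and 4 rose and 0 fell in treated against untreated apoE-deficient hearts, while 5 rose and 0 fell against B6 hearts. Of all tested genes 11.4% rose and 12.3% fell in the first of these comparisons, and 8.78% rose and 9.87% fell in the second. Their summed normalized signal was 26545 to 27342 on treated, 8201 to 8398 on untreated and 9048 to 9736 on B6 arrays. Most of the sum on untreated and B6 arrays came from Fabp4. Against B6 hearts the adipocyte hormone Adipoq rose by 4.23 ± 0.10, the lipid droplet protein Cidec by 3.93 ± 0.18, the adipokine Retn by 2.18 ± 0.39 and the carbonic anhydrase Car3 by 2.86 ± 0.06. Fabp4, a fatty acid binding protein, rose least, by 0.98 ± 0.05. Retn was the marker that did not pass against untreated apoE-deficient hearts (1.11 ± 0.39). In untreated apoE-deficient against B6 hearts 0 of these 5 rose and 3 fell, namely Adipoq (-0.86), Cidec (-1.0) and Car3 (-0.83), beside 3.85% of all tested genes higher and 4.66% lower (limma; 1 higher and 4 lower at an unadjusted p under 0.05). The part of these cells in the Aqp7 values was not tested.

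Most listed genes of lipolysis, which frees glycerol, and of glycerol-3-phosphate metabolism were higher in treated hearts as well. Of 7 listed genes 6 were tested, while Gk, the kinase that uses glycerol itself, had no probe set of its own symbol. Of the 6, 5 rose and 0 fell in treated against untreated apoE-deficient hearts, with a median log2 difference of 1.48. Beside them 11.4% of all tested genes were higher and 12.3% lower, with a median of -0.034. Gpd1, the cytosolic glycerol-3-phosphate dehydrogenase, rose by 2.20 ± 0.10 and its mitochondrial counterpart Gpd2 by 1.63 ± 0.10. Lipe, the hormone-sensitive lipase, rose by 1.32 ± 0.10, and Mgll, the lipase that frees glycerol from monoglycerides, by 1.04 ± 0.07. Pck1, which makes phosphoenolpyruvate from oxaloacetate on the path to glycerol-3-phosphate in fat cells, rose by 3.15 ± 0.23. Pnpla2, the lipase that opens triglyceride breakdown, was the tested gene that did not pass, at -0.07 ± 0.04. Against B6 hearts 5 of the 6 rose and 0 fell, with a median of 1.40, beside 8.78% of all tested genes higher and 9.87% lower. In untreated apoE-deficient against B6 hearts Mgll rose (0.28) and Lipe fell (-0.38), and the other 4 did not pass, beside 3.85% of all tested genes higher and 4.66% lower. White adipocyte markers moved with these genes, as did 5 of 6 brown adipocyte markers, while the sixth, the coactivator Ppargc1a, fell (-0.58 against untreated and -0.53 against B6 hearts). Of the brown markers that rose, Ucp1 and Otop1 averaged below the filter on low signals on the untreated and B6 arrays. A rise was thus built into their being tested. The part of white and brown adipocytes in these values was not tested.

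Aqp4 was lower in both apoE-deficient groups than in B6 hearts by 1 of its 3 probe sets. The deposited signals of 1434449_at were 120.1 and 97.6 on treated, 40.3 and 38.6 on untreated apoE-deficient and 125 and 115 on B6 arrays. After normalization its Aqp4 levels were 6.30 and 6.35 in treated, 6.28 and 6.16 in untreated and 7.26 and 7.37 in B6 hearts, so both B6 arrays lay above the 4 apoE-deficient ones. Untreated apoE-deficient hearts fell by 1.09 ± 0.19 on the log2 scale relative to B6 (limma adjusted p = 0.0112), or 2.13-fold, and treated hearts fell by 0.99 ± 0.19 (limma adjusted p = 0.00738), or 1.99-fold. Treated and untreated apoE-deficient hearts differed by 0.10 ± 0.19 (95% interval -0.32 to 0.53). The untreated call was lost without B6 replicate 1 (-1.14, adjusted p = 0.0639) or 2 (-1.03, adjusted p = 0.0854) and with no intensity trend (adjusted p = 0.0709). The treated call was lost without treated replicate 1 (-0.96, adjusted p = 0.0583) or B6 replicate 2 (-0.93, adjusted p = 0.066), and with signals as deposited (-0.13, adjusted p = 0.677).

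The other Aqp4 probe sets did not pass in any comparison with B6. Probe set 1425382_a_at had levels of 5.07 and 5.13 in treated, 5.20 and 5.46 in untreated apoE-deficient and 5.13 and 5.80 in B6 hearts, and 1447745_at had 5.41 and 4.97, 4.53 and 5.41, and 5.41 and 5.32 in the same order of groups. Both lay near the filter at 4.99 that set which probe sets were tested. Against B6 their differences were -0.37 (95% interval -1.21 to 0.48) and -0.18 (-1.13 to 0.78) in treated and -0.14 (-0.98 to 0.70) and -0.39 (-1.34 to 0.56) in untreated hearts. The intervals of 1447745_at hold both 0 and the differences seen with 1434449_at, and the lower Aqp4 signal rests on 1 probe set.

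The dystrophin complex that holds Aqp4 at the muscle cell membrane was followed beside it. Of 11 listed genes 9 were tested, among which alpha-syntrophin itself was not. In untreated apoE-deficient against B6 hearts 0 rose and 2 fell (limma; 2 higher and 3 lower at an unadjusted p under 0.05), with a median of -0.32 beside 0.0006 for all tested genes, of which 3.85% rose and 4.66% fell. These were Dmd, dystrophin (-0.38 ± 0.09), and Dag1, dystroglycan (-0.32 ± 0.04). In treated against B6 hearts Dmd rose (0.44 ± 0.09), while Dag1 (-0.31 ± 0.04) and the sarcoglycan Sgca (-0.42 ± 0.05) fell, beside 8.78% of all tested genes higher and 9.87% lower. The syntrophins Sntb1 and Sntb2 did not pass in these comparisons, at -0.55 ± 0.27 and -0.36 ± 0.24 in untreated and -0.40 ± 0.27 and -0.32 ± 0.24 in treated hearts. Treated against untreated apoE-deficient hearts showed rises of Dmd (0.82) and Utrn, utrophin (0.26), and falls of Dtna, dystrobrevin (-0.47), and Sgca (-0.62), beside 11.4% of all tested genes higher and 12.3% lower. Dag1 was thus lower in both apoE-deficient groups, as was Aqp4 by 1434449_at, while Dmd fell in untreated and rose in treated hearts relative to B6.

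Aqp11, the intracellular aquaporin, was called in neither comparison with B6. Levels of its brightest probe set, 1447606_x_at, were 7.31 and 7.18 in treated, 7.62 and 7.69 in untreated apoE-deficient and 7.37 and 7.60 in B6 hearts. The treated arrays were lowest by a small margin. The Aqp11 difference of treated from untreated hearts was -0.41 ± 0.14, which turned to 0.87 with signals as deposited. Against B6 it was -0.24 (95% interval -0.57 to 0.084, limma adjusted p = 0.337) in treated and 0.17 (-0.16 to 0.50, limma adjusted p = 0.536) in untreated hearts. Probe set 1429254_at had levels of 5.62 and 5.37 in treated, 5.37 and 6.02 in untreated and 4.67 and 5.68 in B6 hearts, with overlap between every pair of groups. The third Aqp11 probe set, 1455846_at, stayed between 3.90 and 4.16 on the 6 arrays and was not tested.

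Of the 8 other aquaporin genes on the list, 4 were tested and 4 lay below the filter. Mip, Aqp6, Aqp9 and Aqp12 were those below it. Aqp8, a channel of inner mitochondrial and epithelial membranes, had levels of 7.10 and 6.83 in treated, 7.67 and 7.83 in untreated apoE-deficient and 6.35 and 6.70 in B6 hearts. It rose by 1.22 ± 0.19 in untreated apoE-deficient against B6 hearts (limma adjusted p = 0.00702). In treated against untreated hearts Aqp8 was called lower, at -0.78 ± 0.19 (limma adjusted p = 0.0184). Between treated and B6 hearts Aqp8 did not pass (0.44 ± 0.19). Aqp2, the vasopressin-regulated channel of kidney collecting ducts, Aqp3, an aquaglyceroporin of epithelia, and Aqp5, a channel of glands and alveoli, did not pass in any of the 3 comparisons. For Aqp5 the treated arrays were highest, at 6.49 and 5.83, against 5.28 and 3.73 on untreated and 5.56 and 3.79 on B6 arrays, and the difference of treated from untreated hearts was 1.65 ± 0.68.

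**Figure D3:**
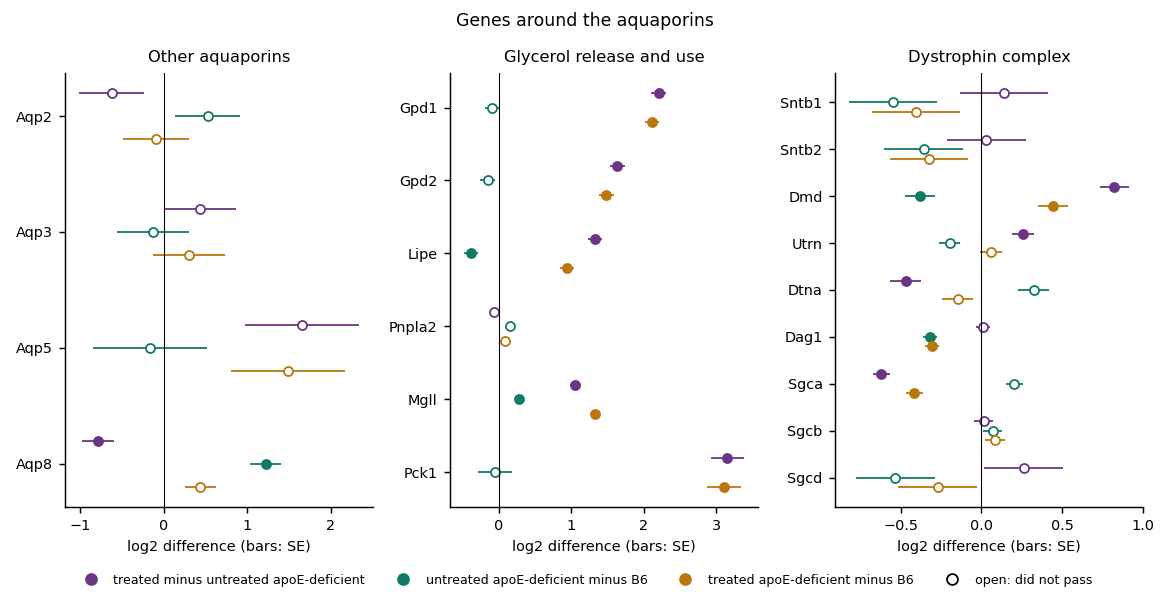
Log2 differences ± SE (x axes) of tested genes (y axes) from 3 lists, in 3 comparisons of 2 arrays per group. The lists are other aquaporins, glycerol release and use (here lipases and genes of glycerol-3-phosphate metabolism), and the dystrophin complex. Filled points passed and open points did not. Gpd1, Gpd2, Lipe, Mgll and Pck1 lie above 0 in both comparisons of treated hearts, and Aqp8 is higher in untreated hearts than in B6.

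Markers of endothelial cells, which hold most cardiac Aqp1, moved in both directions in treated hearts. All 15 listed genes were tested, and 7 rose and 2 fell in treated against untreated apoE-deficient hearts, with a median of 0.12 beside -0.034 for all tested genes, of which 11.4% rose and 12.3% fell. Against B6 hearts 9 rose and 4 fell, with a median of 0.31, where 8.78% of all tested genes rose and 9.87% fell. The 9 were Pecam1, Kdr, Emcn, Eng, Vwf, Egfl7, Robo4, Cldn5 and Icam2, with the largest rise for Cldn5 (1.39 ± 0.12). The 4 were Cdh5, Flt1, Tek and Tie1. Against untreated apoE-deficient hearts Pecam1, an adhesion molecule of endothelial junctions, rose by 0.28 ± 0.08 and Kdr, the main VEGF receptor, by 0.91 ± 0.06. Cdh5, the endothelial cadherin, did not pass there (-0.08 ± 0.06). The genes that fell against untreated hearts were Flt1, another VEGF receptor (-0.88 ± 0.10), and the receptor kinase Tie1 (-0.41 ± 0.08). Summed normalized signals of the list were 13787 to 14098 on treated, 11923 to 12094 on untreated and 11692 to 12004 on B6 arrays. The part of endothelial cells in the Aqp1 values was not tested.

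Values within single arrays, where scaling cancels, restate the Aqp1 levels that chose the gene on another scale and add no support to them. The log2 deposited signal of Aqp1 minus the median of the endothelial list was -0.53 and -0.47 on treated, 3.08 and 3.09 on untreated apoE-deficient and 2.50 and 2.60 on B6 arrays. Against the 8 cardiomyocyte markers the same Aqp1 difference was -4.46 and -4.11 on treated, -2.17 and -2.11 on untreated and -2.44 and -2.36 on B6 arrays. Against 5 mesothelial markers it was 2.03 and 2.20 on treated, 5.67 and 6.13 on untreated and 5.51 and 5.55 on B6 arrays.

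Red blood cells also carry Aqp1, and 2 of their 5 tested markers were lower in treated hearts. Of 12 listed genes 5 were tested, and 0 rose and 2 fell in treated against untreated apoE-deficient hearts, where 11.4% of all tested genes rose and 12.3% fell (limma; 0 higher and 3 lower at an unadjusted p under 0.05). The same 2, the globin Hbb-b2 and Alas2, the heme synthesis enzyme of red cell precursors, fell against B6 hearts, with differences of -2.06 ± 0.23 and -2.66 ± 0.18, where 8.78% of all tested genes rose and 9.87% fell. Slc4a1, the red cell anion exchanger, Rhd and the membrane protein Ermap did not pass in either comparison, at -0.65, -0.37 and -0.02 against untreated and -1.47, 0.37 and 0.18 against B6 hearts. Summed normalized signals of the 5 were 332 to 410.3 on treated, 598 to 732 on untreated and 984 to 1014 on B6 arrays. In untreated apoE-deficient against B6 hearts Hbb-b2 (-1.0 ± 0.23) and Alas2 (-1.20 ± 0.18) fell and the Rh protein Rhd rose (0.74 ± 0.14). Of all tested genes 3.85% rose and 4.66% fell in that comparison. The log2 deposited signal of Aqp1 minus the median of the 5 was 4.10 and 4.11 on treated, 5.78 and 6.40 on untreated and 4.74 and 4.88 on B6 arrays. The part of red cells in the Aqp1 values was not tested.

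**Figure D4:**
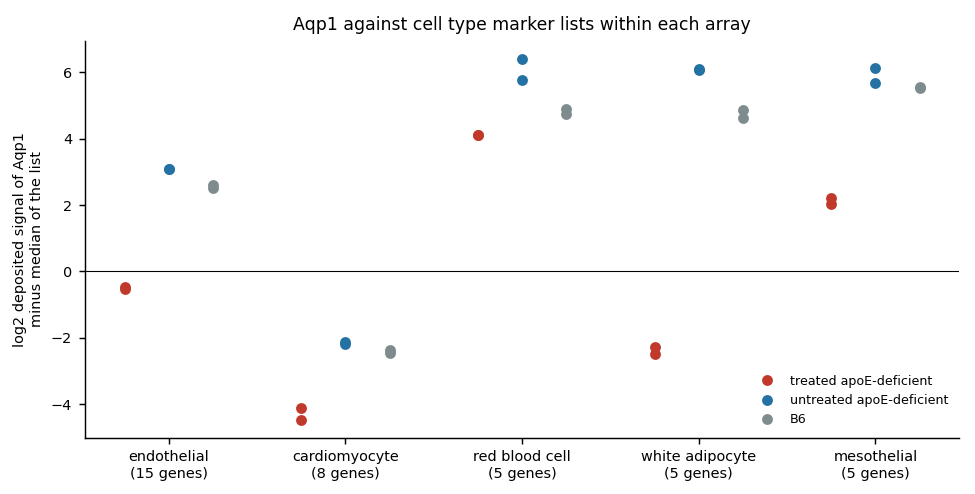
Log2 deposited signal of Aqp1 minus the median of each marker list on the same array (y axis), for 5 lists (x axis); points are arrays, 2 per group. Positions are read only between arrays of a list, and the low treated points follow from the Aqp1 values that chose the gene. For endothelial markers they are at -0.53 and -0.47, against 2.50 or more on the other arrays.

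The genes whose pattern was most like that of Aqp1 were sought by Pearson r of log2 levels over the 6 arrays, among 906 genes whose group means spanned at least 1. They were Timp4, a tissue inhibitor of metalloproteinases (r = 0.997), the microtubule protein Mapt (r = 0.997), the secreted protein C1qtnf9 (r = 0.996), the potassium channel Kcna5 (r = 0.996) and the mitochondrial carrier family member Slc25a34 (r = 0.993). These correlations rest on 3 groups of 2 arrays that share their scaling and are descriptions. Timp4 averaged 7.99 in treated, 9.92 in untreated apoE-deficient and 9.71 in B6 hearts, and C1qtnf9 averaged 8.10, 9.77 and 9.52 in that order of groups. The treated difference from untreated hearts was -2.30 for Kcna5, -1.93 for Timp4, -1.66 for C1qtnf9, -1.19 for Slc25a34 and -1.05 for Mapt.

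With group means spanning at least 0.5, the genes most like Aqp7 by 1418848_at were Tmem120b (r = 0.997), a transmembrane protein, and Klhl5 (r = 0.987), of the kelch family. Those most like Aqp4 by 1434449_at were the DNA methyltransferase Dnmt3a (r = 0.994) and Stox2 (r = 0.989). Dnmt3a averaged 8.03 in treated, 7.90 in untreated apoE-deficient and 8.77 in B6 hearts. That both apoE-deficient groups lay below B6 follows from its choice by r with that Aqp4 probe set. For Aqp11 by 1447606_x_at they were Rrp15 (r = 0.991), a ribosome biogenesis factor, and Ankrd13d (r = 0.985).

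The Aqp1 differences were recomputed under other settings. Over quantile normalization of log2 values, trimmed-mean, spike-in and median scaling, other pseudocounts, no filter, no intensity trend, a replicate block and a fit of only the groups compared, the treated difference from untreated hearts ran between -3.16 and -2.95, and that from B6 hearts between -2.85 and -2.52. With signals as deposited these were -1.95 and -1.95. All these treated differences restate the values that chose Aqp1 and add no support. The untreated difference from B6 ran between 0.20 and 0.47 in the scaled settings, with the highest value from spike-in scaling.

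**Figure D5:**
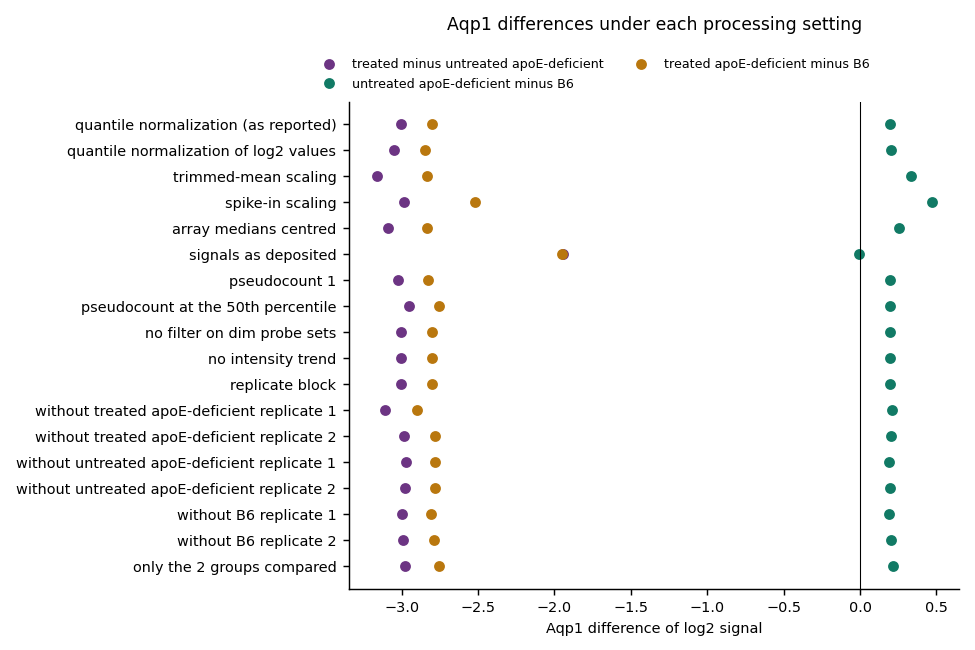
Aqp1 difference of log2 signal (x axis) in 3 comparisons under the reported setting and each of 17 alternatives (y axis). Both differences of treated hearts stay at -1.95 or below in all settings, and the difference of untreated apoE-deficient from B6 hearts lies between -0.0051 and 0.47. The treated differences restate the values that chose Aqp1 and add no support.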

How the data were processed

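Per the labels' protocols, biotin-labelled cRNA from hearts was read on Affymetrix arrays. The authors deposited 1 linear intensity per probe set and array, made with GCOS per the submitters' processing notes; for its version, its background correction and any scaling it applied, the entry is: not given in the sources used here. From the 45101 probe sets 64 controls were removed, and the other 45037 were quantile normalized, then the 25th percentile of all values (11.1) was added before log2. A mean above 4.99, the 40th percentile, admitted 27022 probe sets to the tests.

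The given annotation paired 34945 probe sets with 1 symbol, 932 with several and 9160 with none. The gene numbers of 34741 were found in a table of GRCm38.p6, whose current symbols were then used, changed or not. Outside the 4 aquaporins a gene is represented by its brightest tested probe set, 13236 genes in all. Listed genes without a probe set of their own symbol were not analysed here.

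Limma 3.58.1 in R 4.3.3 (lmFit, eBayes with an intensity trend) fitted the 3 groups of 2 arrays together, with 3 residual and 5.97 prior degrees of freedom. On simulated data for treated against untreated hearts (27022 probe sets) it recovered 25.4%, 55.2% and 81.8% of changes of 0.5, 1 and 2 on the log2 scale, with 9.24% of calls false, above the nominal share. Replicates correlated at r = 0.987 (treated), 0.968 (untreated) and 0.977 (B6).

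The aquaporins, the gene lists and the scaling were chosen with earlier results of these data known. Named genes follow a rule: all aquaporin probe sets, the first 4 tested genes of each list except the mesothelial one, and the genes of highest r with each member. Other list members that passed are named where a count was 5 or fewer, and for endothelial genes against B6, chosen after their values were seen. Alternatives were other scalings, pseudocounts, filters and variance models, a replicate block and each array left out.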

Additional observations from a re-analysis of the deposited data

How the results depend on the processing

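With signals as deposited, which leaves brightness confounded with group, 6 aquaporin probe sets were called in treated against untreated apoE-deficient hearts, 5 of them higher, in place of 3. In that setting 1 was called in untreated against B6 in place of 2, Aqp1 turned to -0.0051 there and stood at -1.95 in treated against untreated hearts, and Aqp11 by 1447606_x_at turned to 0.87 against untreated and 0.65 against B6 hearts. With no filter on dim probe sets 1 was called in untreated against B6 (Aqp1 0.20, adjusted p = 0.0695). With no intensity trend limma called 0 there (1 at an unadjusted p under 0.05; Aqp1 0.20, adjusted p = 0.3) and 2 in place of 4 in treated against B6. Trimmed-mean scaling and array medians centred gave Aqp1 differences of -3.16 and -3.09 from untreated hearts, moved by more than the spread between replicates. Leaving out each array in turn gave 2 to 3 calls in treated against untreated hearts, 0 to 2 in untreated against B6 and 1 to 4 in treated against B6, and Aqp1 differences of -3.11 to -2.97, 0.19 to 0.21 and -2.90 to -2.78. Except for the construction of the unscaled setting and the fewer arrays of the left-out fits, the cause was not tested. Probe sets that passed in neither setting were given no direction. Spike-in scaling moved the median of all tested probe sets to 0.18, 0.11 and 0.28 in the 3 comparisons, and unscaled signals to 1.13, -0.32 and 0.81. The share of calls that were higher was 50.5%, 44.8% and 49.6%, against 79.6%, 80.9% and 92.5% with spike-in scaling, 64.7%, 25.7% and 45.8% with array medians centred, and 99.9%, 4.65% and 99.7% with unscaled signals. Calls over all probe sets numbered 5355, 1909 and 4066, against 1653, 10 and 626 with no intensity trend, and 6979, 3039 and 7604 with spike-in scaling. Replicate numbers of the labels do not pair arrays beyond the number: deviations of same-numbered arrays correlated at -0.0063, 0.020 and 0.033 between groups. With the replicate block 3, 2 and 4 aquaporin probe sets were called, as without it, and 5344, 1937 and 4103 of all. Of 561 counts of called genes in the 11 lists under alternatives, 451 stayed within 1.5 times and 110 did not, 19 of them with no intensity trend and 45 with an array left out.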

Other observations

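Genes that set cell volume and osmolyte content, beside which aquaporins act, were followed as a list. Of 13 listed genes 10 were tested, and in treated against untreated apoE-deficient hearts 1 rose and 1 fell, where 11.4% of all tested genes rose and 12.3% fell, with a median of -0.028 beside -0.034 for all. Sgk1, a kinase that stimulates ion transport, rose (0.66 ± 0.05), and Lrrc8a, a subunit of the volume-regulated anion channel, fell (-0.41 ± 0.07). Nfat5, the transcription factor of the response to hypertonicity, and its target Slc5a3, the inositol transporter, did not pass, at -0.25 ± 0.16 and -0.07 ± 0.13. Against B6 hearts 3 of the 10 rose and 3 fell in treated hearts, where 8.78% of all tested genes rose and 9.87% fell. The taurine transporter Slc6a6 (0.68 ± 0.10), the potassium chloride cotransporter Slc12a4 (0.30 ± 0.08) and Sgk1 (0.64 ± 0.05) rose, while Slc12a7 (-0.23 ± 0.06), Lrrc8a (-0.34 ± 0.07) and the chloride transporter Clcn3 (-0.76 ± 0.09) fell. In untreated apoE-deficient against B6 hearts Slc12a4 rose (0.46 ± 0.08) and Clcn3 fell (-0.78 ± 0.09), where 3.85% of all tested genes rose and 4.66% fell. The sodium potassium chloride cotransporter Slc12a2 did not pass in any of the 3 comparisons. Clcn3 was thus lower than in B6 hearts in both apoE-deficient groups.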
